A study of Drosophila melanogaster with 12 samples.

Results

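Aminoacyl-tRNA synthetases are the enzymes that load each amino acid onto its tRNA. Their genes were taken as every Drosophila gene whose FlyBase symbol is an amino acid name followed by RS or RS-m, with GluProRS and the subunits of PheRS included. The rule found 35 genes, 20 for cytosolic and 15 for mitochondrial (-m) enzymes, among 17023 gene identifiers in the files. A row of counts was held for 33 of them, 19 cytosolic and 14 mitochondrial, and all 33 were among the 9024 genes tested. LeuRS and PheRS-m were not analysed here. Counts of the 33 genes ran from 53 to 7829 reads per library.

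The libraries come from S2 cells, an embryonic Drosophila line with features of hemocytes, the macrophage-like blood cells of insects. Cells were transfected with 1 µg of dsRNA (double-stranded RNA for RNA interference), directed in the controls against GFP and otherwise against porthos (CG9253, symbol pths), a DEAD-box RNA helicase. Passage followed at 48 h and harvest 3 days later, after the ribosomes had been stalled on mRNA for 3 min with cycloheximide at 100 µg/ml. Of each lysate 20% was kept as input, and polysomes, the mRNAs carrying several ribosomes, were taken from a 10 to 50% sucrose gradient. The 12 libraries form 4 groups of 3, namely input and polysome with GFP dsRNA and input and polysome with porthos dsRNA. All groups share the cell line, the cycloheximide and poly(A) selection. Input RNA was extracted with TRIzol and polysome RNA with phenol and chloroform, so the fraction and the extraction cannot be told apart in a comparison of polysome with input. The labels do not say that replicates came from separate cultures.

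A synthetase activates its amino acid with ATP and transfers it to the tRNA, and errors at this step put wrong residues into proteins. The enzymes belong to structural classes called I and II, which have unrelated catalytic folds. In animals both the cytosolic and the mitochondrial enzymes are encoded in the nucleus and translated in the cytosol, and the mitochondrial ones are then imported to serve the translation of mitochondrial genes. GluProRS joins the glutamyl and prolyl enzymes in a single chain. In mammals several cytosolic synthetases form a multisynthetase complex on the scaffold proteins AIMP1, AIMP2 and AIMP3. For 5 amino acids (Gln, Gly, His, Lys and Thr) no -m symbol exists. In human cells a single gene gives the cytosolic and the mitochondrial form of GlyRS, and likewise of LysRS.

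Depth ran from 7559406 to 11918941 counts per library. The dsRNA target pths fell in input from 222.8 ± 2.99 to 103.1 ± 6.43 CPM (counts scaled to a common library size with TMM factors; SD, n = 3) and on polysomes from 320.04 ± 6.08 to 116.2 ± 24.0 CPM. The library of polysome porthos replicate 3 stood apart, with a count for 10377 genes against 11485 to 11864 in the other 11. Its score on principal component 2, which held 13.7% of the variance, was -33.5, against -6.50 to 11.9. Calls that rest on it are given below without it. The 8 plasmatocyte markers summed to 967 to 1841 CPM, lower in the polysome libraries than in input. They were uneven. In input with GFP dsRNA Col4a1, vkg and crq were highest, at 790, 326 and 238 CPM. There eater, Pxn and Hml had 18.8, 21.4 and 48.1 CPM, and NimC1, at 0.81 CPM, was not tested. Markers of muscle summed to at most 3.00 CPM and of fat body to 0.255 to 3.21 CPM, with 1 of the 3 fat body genes at 0 in all libraries. Neuron markers summed to 67.5 to 151 CPM, and germline markers (2 genes) to 85.3 to 245 CPM. Most of these came from elav and aub, at 137 and 201 CPM in input with GFP dsRNA. With porthos dsRNA 3 of 7 tested plasmatocyte markers were higher in input and 0 lower, against 0.997% and 0.72% of all genes. They were Pxn, Hml and eater, with log2 changes of 1.18, 1.00 and 0.94 (list median 0.004). The germline marker bam was also higher (0.73). On polysomes 4 of the 7 plasmatocyte and both germline markers were higher, against 11.2% of all genes. The part of these markers in the results on synthetases was not tested. In bulk RNA, a shift in cell states and a change of RNA per cell cannot be told apart.

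Synthetase mRNAs for the cytosolic enzymes were abundant, and those for the mitochondrial enzymes lay near the middle of all genes. Levels of different genes are compared as RPKM, the CPM divided by the summed exon length in kilobases. In input with GFP dsRNA the median over the 19 cytosolic genes was 76.1 RPKM, at the 87.5th percentile of the genes tested. The median over the 14 mitochondrial genes was 18.6 RPKM, at the 49.8th percentile, and the median of all tested genes was 18.7 RPKM. The cytosolic genes spanned a 9.33-fold range and the mitochondrial ones an 11.5-fold range, so the sets overlapped.

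At the top stood AlaRS (FBgn0027094, dm6 chromosome 2L, 8378262 to 8381764, minus strand), which loads alanine. It had 191, 199 and 195 RPKM in the input libraries with GFP dsRNA and 84.6, 89.3 and 87.0 RPKM in the polysome libraries with GFP dsRNA. ThrRS, the threonine enzyme, followed at 179, 176 and 159 RPKM in input. The ranges of AlaRS and ThrRS did not overlap there, and together they made up 23.4% of the summed cytosolic RPKM. On polysomes with GFP dsRNA ThrRS, at 128 to 130 RPKM, was above AlaRS in every library. The lowest cytosolic gene was AspRS, the aspartate enzyme, at 21.9, 20.7 and 20.1 RPKM in input. alpha-PheRS, at 26.7 ± 1.11 RPKM, was next, and its 3 values lay above all 3 of AspRS.

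Among mitochondrial enzymes AspRS-m was highest at 52.5, 51.7 and 53.5 RPKM in input with GFP dsRNA, followed by LeuRS-m at 39.4 ± 0.780 RPKM. The lowest was ValRS-m, at 4.18, 4.83 and 4.76 RPKM. MetRS-m (4.87 ± 0.337 RPKM) and GluRS-m (5.45 ± 0.704 RPKM) overlapped ValRS-m or each other in their replicate ranges, so the order of the lowest 3 is not resolved. Replicates were close in both sets. The median coefficient of variation over genes was 4.30% for cytosolic and 6.97% for mitochondrial genes in input with GFP dsRNA, and 7.81% and 8.99% in the polysome porthos group, where it was highest.

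**Figure D1:**
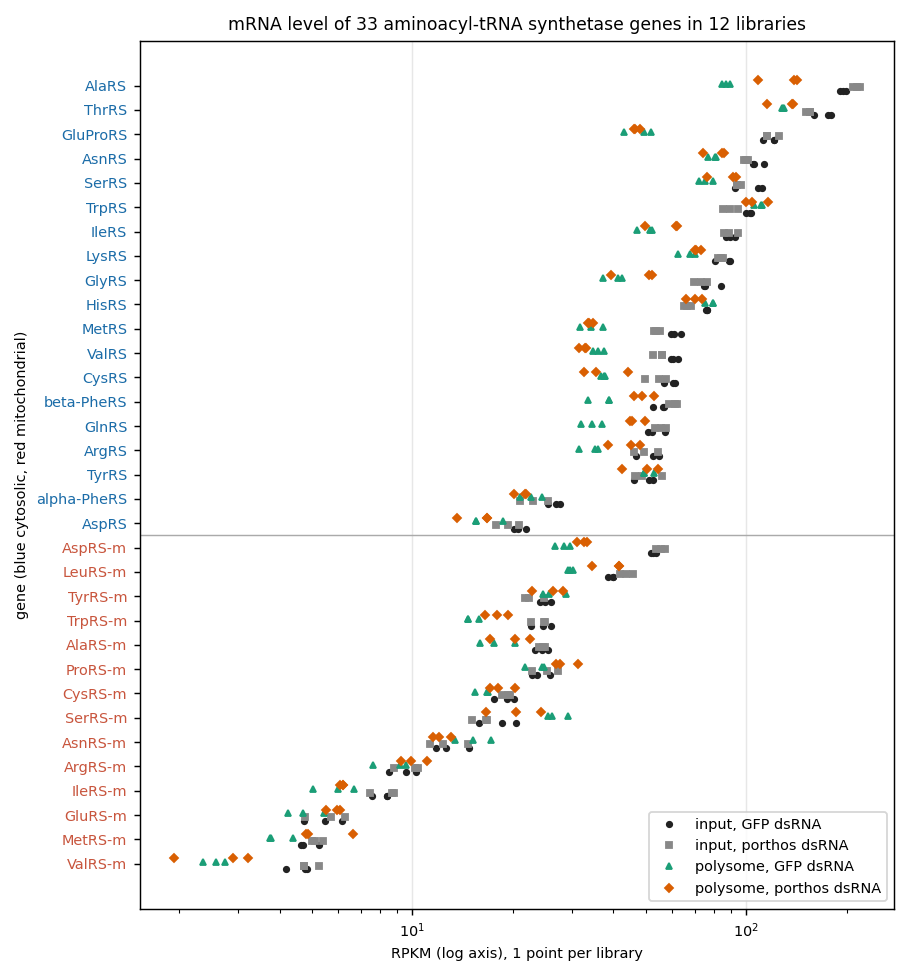
Level of each of the 33 synthetase genes (RPKM, logarithmic axis) in each of the 12 libraries, with cytosolic enzymes in blue and mitochondrial enzymes in red; each point is 1 library. Cytosolic genes had a median of 76.1 RPKM and mitochondrial genes of 18.6 RPKM in input with GFP dsRNA, and AspRS-m lies inside the cytosolic range.

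Both enzymes for the same amino acid were measured for 11 amino acids. In 10 of the 11 pairs the cytosolic gene had the higher RPKM in all 12 libraries. The ratio of cytosolic to mitochondrial RPKM in input with GFP dsRNA was lowest for the tyrosine pair at 2.00 and highest for the valine pair at 13.3, with the methionine pair next at 12.6. The aspartate pair was the exception. AspRS-m was above AspRS in all 12 libraries, by 2.52-fold in input and 1.70-fold on polysomes with GFP dsRNA, and by 2.87-fold and 2.06-fold with porthos dsRNA. AspRS (chromosome 2R, 12877004 to 12883168, plus strand) overlaps Nmda1, with 3122 to 5404 counts per library, by 127 exonic bases on the opposite strand. It also overlaps asRNA:CR45141, which had 0 to 6 counts, by 1448. AspRS-m (chromosome 2L, 16827078 to 16832093, plus strand) overlaps CG13282, which had 0 to 6 counts, by 29. The sources used here do not give the strand setting of the counting, so counts of genes that overlap on opposite strands are uncertain. Overlaps on the same strand are uncertain under any strand setting. AspRS overlaps asRNA:CR43468, with 6 to 18 counts, by 154 exonic bases on the same strand. HisRS likewise overlaps Bx, with 201 to 506 counts, by 255. Of the 33 genes, 17 overlap another annotated gene, 6 of them cytosolic and 11 mitochondrial.

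For glutamate and proline the cytosolic activity lies in GluProRS, at 117.9 ± 5.27 RPKM in input with GFP dsRNA, against 5.45 RPKM for GluRS-m and 24.1 ± 1.56 RPKM for ProRS-m. Cytosolic PheRS is a tetramer of paired alpha and beta subunits, whereas the mitochondrial enzyme is a single chain. The beta-PheRS mRNA was 2.07 times as abundant as alpha-PheRS per length in input with GFP dsRNA. In input, beta-PheRS had 56.8, 56.2 and 52.5 RPKM and alpha-PheRS 26.9, 27.6 and 25.5 RPKM. All 3 values of beta-PheRS lay above all 3 of alpha-PheRS, in each of the 4 groups.

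Summed over genes, the mRNAs of both compartments were a smaller part of the polysome libraries than of the input libraries. Cytosolic synthetases summed to 4458 ± 107 CPM in input and 2839 ± 96.1 CPM on polysomes with GFP dsRNA, and to 4315 ± 116 and 3087 ± 209 CPM with porthos dsRNA. The mitochondrial sums were 766 ± 1.66 and 587 ± 11.5 CPM with GFP dsRNA, and 789 ± 5.18 and 651 ± 17.0 CPM with porthos dsRNA (SD, n = 3). In both sets the polysome libraries lay below all input libraries. The mitochondrial sum came to 17.2 ± 0.398% of the cytosolic sum in input and 20.7 ± 0.332% on polysomes with GFP dsRNA, and to 18.3 ± 0.478% and 21.1 ± 0.910% with porthos dsRNA. The ranges of this percentage did not overlap between input and polysome libraries. On polysomes they overlapped between dsRNA treatments, and in input the porthos libraries (17.8 to 18.7%) lay above the GFP libraries (16.8 to 17.5%).

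**Figure D2:**
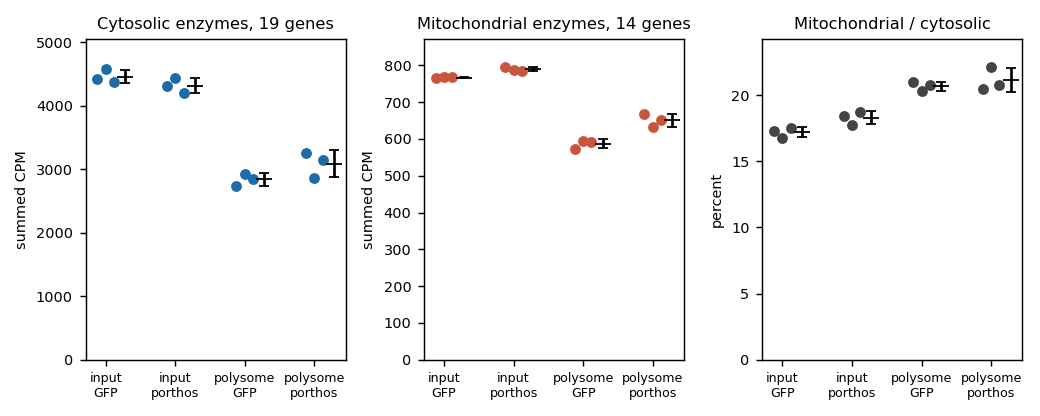
Summed CPM of the 19 cytosolic and the 14 mitochondrial synthetase genes, and the mitochondrial sum in percent of the cytosolic sum, per library (points) with the group mean and SD (bars), n = 3 per group. Polysome libraries lie below input libraries in both sums and above them in the percentage, whose group means with GFP dsRNA were 17.2% in input and 20.7% on polysomes.

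The first comparison asked which synthetase mRNAs were over- or under-represented on polysomes in control cells. Most cytosolic synthetase mRNAs made up less of the polysome RNA than of the input RNA. With GFP dsRNA 16 of 19 cytosolic genes were lower and 0 higher (edgeR's quasi-likelihood test, adjusted p under 0.05; 0 of 19 were higher at an unadjusted p under 0.05, and DESeq2 called none higher), with a median log2 difference of -0.57. Of the 14 mitochondrial genes 6 were lower and 1 higher, with a median of -0.25. Over all genes tested 55.4% were called, 28.9% lower and 26.5% higher, with a median of 0.01. All values are relative to the average mRNA, and the difference between the compartments was not tested. With scaling by library size alone the median of all genes moved to 0.14, those of the cytosolic and mitochondrial sets to -0.45 and -0.13, and the calls to 14 lower and 2 higher, and 6 lower and 2 higher.

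GluProRS (FBgn0005674, chromosome 3R, 23952136 to 23958391, minus strand) had the largest difference. It had 610, 658 and 661 CPM in input and 234, 269 and 283 CPM on polysomes with GFP dsRNA. No polysome library came near an input library. The log2 difference was -1.30 ± 0.08 (SE), or 2.46-fold lower on polysomes (edgeR, adjusted p = 9.78e-12). An antisense RNA gene, asRNA:CR46092, overlaps 905 exonic bases of GluProRS and was not analysed here.

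AlaRS was lower on polysomes by a similar amount, at 627, 655 and 640.3 CPM in input and 278, 294 and 286 CPM on polysomes (log2 difference -1.16 ± 0.08, adjusted p = 1.03e-10). GlyRS, the glycine enzyme, followed at -0.95 ± 0.09 (adjusted p = 4.21e-09), and the isoleucine, methionine and valine enzymes IleRS, MetRS and ValRS at -0.83, -0.83 and -0.75. The other called cytosolic genes lay between -0.67 (CysRS) and -0.23 (alpha-PheRS). The call of alpha-PheRS (adjusted p = 0.0477) was the weakest and was lost when any 1 of the 12 libraries was left out (adjusted p from 0.0544 to 0.332). That of AspRS (-0.33, adjusted p = 0.00917) was lost without input GFP replicate 1, polysome GFP replicate 1 or polysome GFP replicate 3 (adjusted p = 0.0585, 0.0589 and 0.0888). The cytosolic genes not called were TrpRS (0.10 ± 0.07), HisRS (0.04 ± 0.07) and TyrRS (0.01 ± 0.09), the enzymes for tryptophan, histidine and tyrosine.

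Of the mitochondrial genes AspRS-m and ValRS-m were lowest on polysomes, with log2 differences of -0.90 ± 0.07 (adjusted p = 2.61e-10) and -0.84 ± 0.17 (adjusted p = 0.00014). AspRS-m had 232, 229 and 237 CPM in input and 118, 126 and 131 CPM on polysomes, about as far apart as the cytosolic GlyRS. TrpRS-m (-0.70), IleRS-m (-0.47), AlaRS-m (-0.44) and LeuRS-m (-0.41) were also lower. The 7 mitochondrial genes that were not called lay between -0.29 (MetRS-m) and 0.22 (AsnRS-m).

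SerRS-m, which charges mitochondrial serine tRNAs, was the only synthetase gene higher on polysomes with GFP dsRNA. SerRS-m (FBgn0021750, chromosome 3R, 15340667 to 15343218, plus strand) had 52.1, 47.3 and 40.3 CPM in input and 74.4, 65.04 and 66.8 CPM on polysomes. All polysome values lay above all input values (log2 difference 0.56 ± 0.11, adjusted p = 0.000146). Its cytosolic counterpart SerRS was lower at -0.46 ± 0.08, so the cytosolic to mitochondrial ratio of the serine pair was 5.73 in input and 2.83 on polysomes. The tryptophan pair went the other way, from 4.18 to 7.26. SerRS-m overlaps Nagk by 356 exonic bases on the opposite strand, and Nagk, with 88 to 135 counts per library, was also higher on polysomes (0.45, adjusted p = 0.0232).

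By structural class, 6 of 8 cytosolic genes of class I (median -0.65) and 9 of 10 of class II (median -0.43) were lower on polysomes with GFP dsRNA. Of the mitochondrial genes 4 of 9 of class I were lower, and 2 of 5 of class II were lower and 1 higher. GluProRS holds a domain of each class and is not in these counts.

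**Figure D3:**
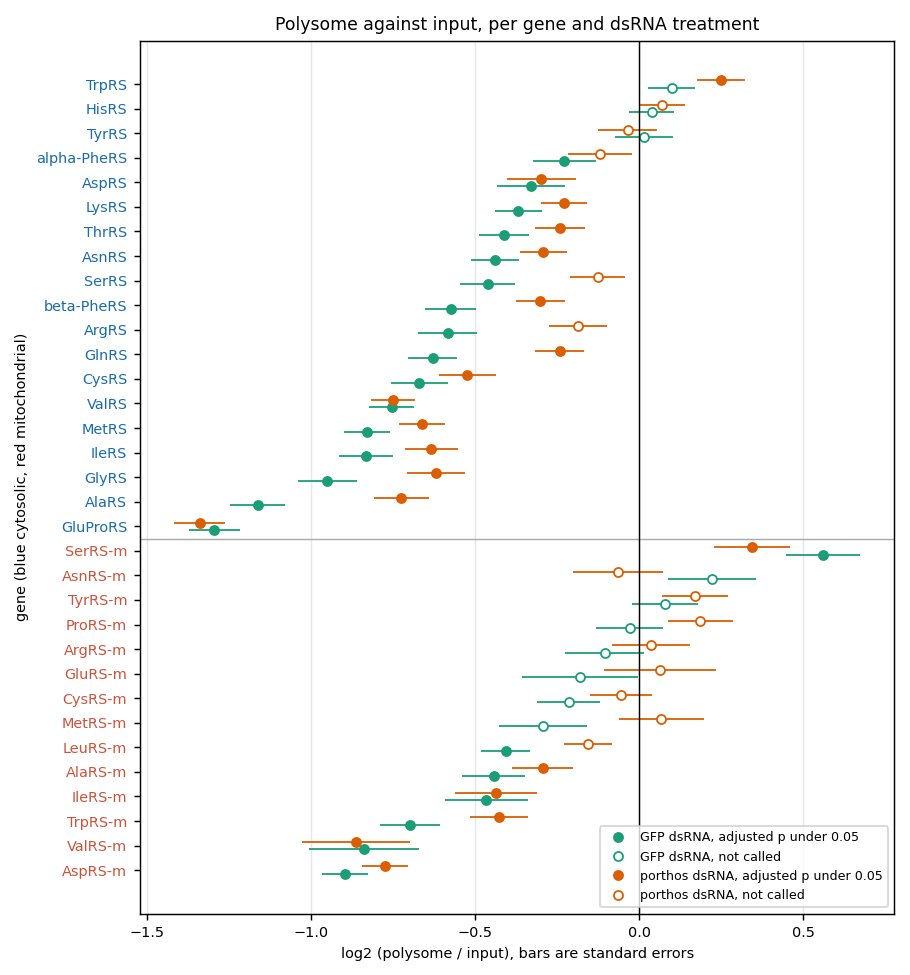
Log2 difference between polysome and input libraries for each synthetase gene (points, with SE bars), with GFP dsRNA and with porthos dsRNA; filled points passed edgeR's test at an adjusted p under 0.05, blue is cytosolic and red mitochondrial. GluProRS and AlaRS lie lowest with GFP dsRNA at -1.30 and -1.16, and SerRS-m highest at 0.56.

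Long mRNAs were under-represented on polysomes in these libraries, for synthetases as for other genes. Across genes, which are not independent replicates and share the same libraries, Spearman's rho between the polysome to input difference and exon length was -0.66 over 8818 genes with GFP dsRNA. It was -0.72 over the 19 cytosolic and -0.72 over the 14 mitochondrial genes. The median exon length was 2453 bp for cytosolic and 2650 bp for mitochondrial synthetase genes, against 2040 bp for all genes. GluProRS is the longest at 5453 bp, AspRS-m has 4422 bp and AlaRS 3289 bp, whereas TrpRS, which was not lower, has 1683 bp. HisRS, also not lower, has 2862 bp.

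In a fit chosen after seeing the data, a trend with exon length was removed from each library. Then 15 of 19 cytosolic genes were lower and 1 higher (median -0.48), and 3 of 14 mitochondrial genes were lower and 1 higher (median -0.17), against 20.1% lower and 19.6% higher over all genes. GluProRS moved from -1.30 to -0.87 (adjusted p = 1.13e-09) and AlaRS from -1.16 to -0.89 (adjusted p = 2.4e-09). HisRS came to pass as higher (0.26, adjusted p = 0.00244), and SerRS-m remained higher (0.73, adjusted p = 1.25e-05). The genes no longer called were AspRS, AlaRS-m, IleRS-m and LeuRS-m.

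**Figure D4:**
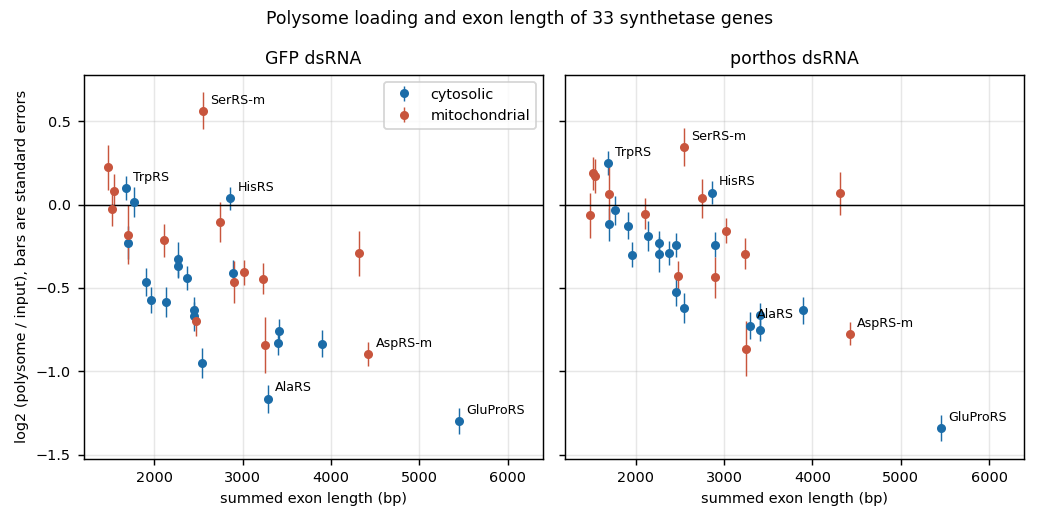
Log2 difference between polysome and input libraries against exon length (bp) for the 33 synthetase genes, with GFP dsRNA and with porthos dsRNA; blue points are cytosolic and red points mitochondrial enzymes, and bars are SE. Longer genes lie lower, with Spearman's rho of -0.72 over the 19 cytosolic genes with GFP dsRNA.

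Scaffold proteins of the multisynthetase complex were compared with the enzymes. AIMP1, AIMP2 and AIMP3 were all higher on polysomes with GFP dsRNA, at 0.84 ± 0.13 (adjusted p = 6.12e-06), 0.31 ± 0.09 (adjusted p = 0.00454) and 0.74 ± 0.14 (adjusted p = 6.37e-05) on the log2 scale. AIMP1, for example, had 47.1 ± 5.01 CPM in input and 84.4 ± 15.6 CPM on polysomes. Their transcripts are short, with 1036, 1150 and 739 exonic bases. With the length trend removed AIMP1 passed (0.37, adjusted p = 0.0108) and AIMP2 (-0.09, adjusted p = 0.487) and AIMP3 (0.05, adjusted p = 0.814) did not. In the same list GatA, a subunit of the amidase that makes mitochondrial Gln-tRNA from Glu-tRNA, was higher (0.41 ± 0.11, adjusted p = 0.00268). GatB (-0.11) and Slimp (0.02), a relative of SerRS-m without charging activity, did not pass. Thus 4 of 6 tested genes of the list were higher and 0 lower, against 26.5% and 28.9% of all genes. At an unadjusted p under 0.05 the counts of the list were the same. With the length trend removed GatA passed (0.28, adjusted p = 0.033), and GatB and Slimp did not (adjusted p = 0.153 and 0.209).

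The cytosolic enzymes that belong to the complex in mammals and were measured here are GluProRS, IleRS, MetRS, GlnRS, ArgRS, LysRS and AspRS. This grouping was made after the values were seen. All 7 were lower on polysomes with GFP dsRNA (median -0.63), as were 9 of the 12 other cytosolic genes (median -0.45), against 28.9% of all genes. Of the 7, AspRS lost its call with the length trend removed and without some single libraries. The difference between these groups was not tested. With porthos dsRNA 6 of the 7 were lower (median -0.30), and 7 of the 12 were lower and 1 higher (median -0.27). Over all genes 24.1% were then lower and 23.7% higher. Of the 6, AspRS, GlnRS and LysRS lost these calls without input porthos replicate 1 or 2 and with scaling by library size alone. AspRS and GlnRS also lost them with the length trend removed. ThrRS, of the 12, lost its call in each of these fits.

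The second comparison set polysome against input libraries in cells that received porthos dsRNA. Here 13 of 19 cytosolic genes were lower on polysomes and 1 higher (median -0.29), and 5 of 14 mitochondrial genes were lower and 1 higher (median -0.06), against 47.8% of all genes called, 24.1% lower and 23.7% higher. With scaling by library size alone, which moved the median of all genes to 0.09, the mitochondrial median turned to 0.03. That scaling gave 9 lower and 1 higher cytosolic genes and 4 lower and 3 higher mitochondrial genes. Over all genes 19.1% were then lower and 29.9% higher. The mitochondrial median was -0.12 without polysome porthos replicate 1 and -0.008 without input porthos replicate 3. Without polysome porthos replicate 3 the calls were 13 lower and 1 higher, and 6 lower and 1 higher.

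GluProRS was again lowest, with 629, 682 and 627 CPM in input and 261, 250.5 and 254 CPM on polysomes (log2 difference -1.34 ± 0.08, adjusted p = 5.8e-12). ValRS-m (-0.86 ± 0.16), AspRS-m (-0.77 ± 0.07), ValRS (-0.75 ± 0.07), AlaRS (-0.73 ± 0.08), MetRS (-0.66 ± 0.07), IleRS (-0.63 ± 0.08) and GlyRS (-0.62 ± 0.09) followed. The genes that were higher were TrpRS and SerRS-m. TrpRS (FBgn0010803, chromosome 3R, 9265027 to 9266904, minus strand) had 159, 144 and 150.5 CPM in input and 195, 175 and 168 CPM on polysomes. Its groups did not overlap (0.25 ± 0.07, adjusted p = 0.00602). SerRS-m had 42.8, 42.4 and 38.4 CPM in input and 52.2, 61.9 and 42.5 CPM on polysomes, and these ranges overlapped (0.34 ± 0.11, adjusted p = 0.0155). Without polysome porthos replicate 2 SerRS-m was not called, and without replicate 3 its difference was 0.46 (adjusted p = 0.000816). With the length trend removed TrpRS was no longer called, nor were AspRS, GlnRS, ThrRS, AlaRS-m and IleRS-m, which had been lower. HisRS and MetRS-m came to be called in that fit.

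All cytosolic genes lower with porthos dsRNA (13) and all mitochondrial ones (5) were also lower with GFP dsRNA. ArgRS, SerRS and alpha-PheRS of the cytosolic and LeuRS-m of the mitochondrial genes passed with GFP dsRNA alone. The difference from input was nearer to 0 with porthos than with GFP dsRNA for 15 of 19 cytosolic and 11 of 14 mitochondrial genes, against 63.2% of all genes tested (5699 of 9024). The difference between treatments is tested below, gene by gene.

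The third comparison asked which synthetase mRNAs changed in level when porthos was depleted. In input no synthetase gene passed the test, 0 of 33 in either direction by edgeR and 0 by DESeq2, against 1.72% of all genes, 0.997% higher and 0.72% lower. At an unadjusted p under 0.05 there were 6, all cytosolic and lower, namely HisRS (-0.19), MetRS (-0.18), TrpRS (-0.18), ValRS (-0.16), ThrRS (-0.16) and alpha-PheRS (-0.21). Over all genes 6.59% were lower at that threshold. The porthos and GFP libraries did not overlap for 11 synthetase genes, 7 of them lower with porthos dsRNA (all cytosolic, those 6 included) and 4 higher (AlaRS, beta-PheRS, AspRS-m and LeuRS-m). Over all genes 12% lay apart as lower and 12.9% as higher. HisRS, for example, had 217, 218 and 218 CPM with GFP dsRNA and 186, 196 and 190 CPM with porthos dsRNA (adjusted p = 0.178). The log2 changes of all 33 genes lay between -0.21 and 0.15. Of the cytosolic genes 14 of 19 were below 0 (median -0.11), and of the mitochondrial genes 10 of 14 were above 0 (median 0.03), whereas 4599 of 9024 genes were above 0 (median 0.00). These medians moved with single libraries. Without input porthos replicate 3 the cytosolic median was -0.06 and 7 of 14 mitochondrial genes were above 0 (median 0.02), and without input porthos replicate 1 it was 8 of 14 (median 0.002).

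With the input libraries fitted alone, HisRS (-0.19, adjusted p = 0.0166), MetRS (-0.19, adjusted p = 0.0238) and TrpRS (-0.18, adjusted p = 0.0373) passed as lower. That fit called 360 genes higher and 331 lower, against 90 and 65 with all libraries.

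On polysomes 6 synthetase genes rose with porthos dsRNA and 1 fell. Of the cytosolic genes 4 of 19 were higher and 0 lower (21.1% higher; 2 were lower at an unadjusted p under 0.05, and DESeq2 called 1 lower), with a median log2 change of 0.01. Of the mitochondrial genes 2 of 14 were higher and 1 lower, with a median of 0.19 and 11 of 14 above 0. Over all genes tested 18.4% were called, 11.2% higher and 7.14% lower (median 0.00). The cytosolic median was below 0 with scaling by library size alone (-0.03), with the length trend removed (-0.05), with no filter (-0.003) and without some single libraries (lowest -0.04). Without polysome porthos replicate 3, 4 cytosolic and 1 mitochondrial gene were higher and 0 lower, against 6.52% and 4.53% of all genes. The 3 porthos libraries lay apart from the 3 GFP libraries for the 7 called genes and for 15 synthetase genes in all, 11 higher and 4 lower, against 16.2% and 13.4% of all genes.

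AlaRS rose most. It had 278, 294 and 286 CPM on polysomes with GFP dsRNA and 456, 356 and 466 CPM with porthos dsRNA. Porthos replicate 2 was the lowest of its group and still lay above every GFP library. The log2 change was 0.57 ± 0.08, or 1.49-fold (edgeR, adjusted p = 5.87e-05), and 0.48 (adjusted p = 0.000668) without polysome porthos replicate 3. In input AlaRS had 627, 655 and 640.3 CPM with GFP dsRNA and 707, 721 and 684 CPM with porthos dsRNA, a change of 0.14 ± 0.08 that did not pass (adjusted p = 0.496), although these ranges did not overlap either.

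GlnRS, the glutamine enzyme (FBgn0027090, chromosome 3R, 25263267 to 25265721, minus strand), had 84.6, 90.8 and 78.4 CPM on polysomes with GFP dsRNA and 122, 110.4 and 112 CPM with porthos dsRNA. The groups lay well apart (log2 change 0.44 ± 0.08, adjusted p = 0.000325), while in input its ranges overlapped (0.05 ± 0.07). ArgRS, the arginine enzyme (FBgn0027093, chromosome X, 15841769 to 15844145, minus strand), had 67.5, 76.6 and 74.9 CPM with GFP and 103, 82.1 and 96.3 CPM with porthos dsRNA. Its lowest porthos value was close to its highest GFP value (0.36 ± 0.09, adjusted p = 0.00769). The call of ArgRS was lost without polysome GFP replicate 1 (0.29, adjusted p = 0.0671) or polysome porthos replicate 1 (0.27, adjusted p = 0.0795).

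The subunits of PheRS differed. beta-PheRS (FBgn0039175, chromosome 3R, 24250460 to 24252679, minus strand) had 65.6, 76.2 and 76.04 CPM on polysomes with GFP dsRNA and 103, 90.2 and 95.8 CPM with porthos dsRNA. It rose by 0.41 ± 0.08 on the log2 scale (adjusted p = 0.000824). alpha-PheRS (FBgn0030007, chromosome X, 8143904 to 8145602, minus strand), the catalytic subunit, had 38.5, 41.6 and 35.7 CPM with GFP and 37.0, 37.2 and 34.2 CPM with porthos dsRNA. Those ranges overlapped (-0.10 ± 0.10, adjusted p = 0.533), and the difference between the changes of the subunits was not tested.

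LeuRS-m, the mitochondrial leucine enzyme (FBgn0027085, chromosome 3L, 4825853 to 4829038, plus strand), had 91.2, 89.7 and 88.4 CPM on polysomes with GFP dsRNA and 126, 104 and 125 CPM with porthos dsRNA. It rose by 0.40 ± 0.08 (adjusted p = 0.000745), and its tight GFP values lay below all porthos values. In input its change was 0.15 ± 0.07 (adjusted p = 0.361). AlaRS, GlnRS, beta-PheRS and LeuRS-m kept their calls whichever library was left out, with log2 changes from 0.48 to 0.67, 0.36 to 0.47, 0.33 to 0.44 and 0.34 to 0.47.

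MetRS-m, the mitochondrial methionine enzyme (FBgn0027083, chromosome 3R, 14249043 to 14259991, minus strand), had 16.2, 18.9 and 16.3 CPM with GFP and 20.7, 21.03 and 28.7 CPM with porthos dsRNA. Porthos replicate 3, the library that stood apart, was far above the others of its group. The log2 change of MetRS-m was 0.45 ± 0.14 (adjusted p = 0.023) with that library and 0.26 (adjusted p = 0.202) without it. The call was also lost without polysome GFP replicate 1 (adjusted p = 0.105) or replicate 3 (adjusted p = 0.0849).

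SerRS-m was the 1 gene that fell on polysomes, from 74.4, 65.04 and 66.8 CPM with GFP dsRNA to 52.2, 61.9 and 42.5 CPM with porthos dsRNA. Replicate 3 was again the most extreme of the porthos libraries, and replicate 2 came close to the GFP values. The log2 change was -0.40 ± 0.11 (adjusted p = 0.0163), and it was -0.29 (adjusted p = 0.0753) without polysome porthos replicate 3 and -0.35 (adjusted p = 0.0746) without polysome GFP replicate 1. In input SerRS-m changed by -0.18 ± 0.11, which did not pass (adjusted p = 0.528). Nagk, which overlaps it, had a log2 change of 0.00 on polysomes.

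**Figure D5:**
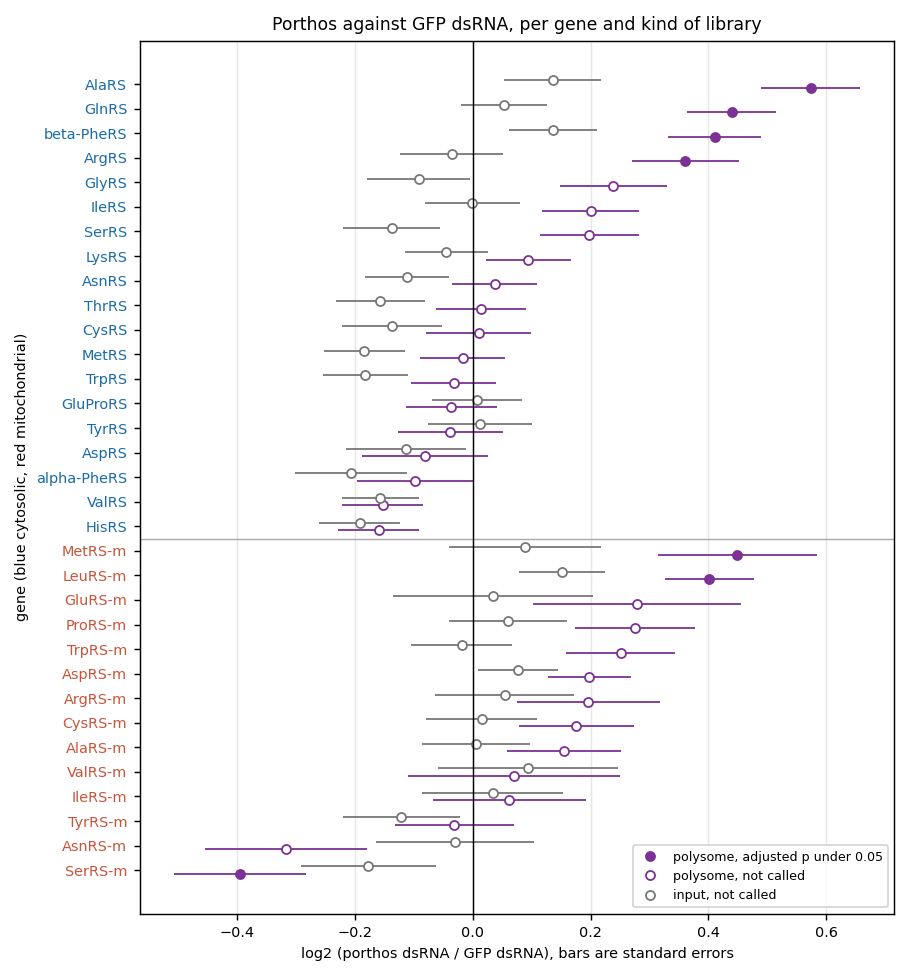
Log2 change with porthos against GFP dsRNA for each synthetase gene on polysomes and in input (points, with SE bars); filled points passed edgeR's test at an adjusted p under 0.05, blue is cytosolic and red mitochondrial. On polysomes AlaRS is highest at 0.57 and SerRS-m lowest at -0.40, and no gene passed in input.

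Other synthetase genes came near the threshold on polysomes without passing. AspRS-m had a log2 change of 0.20 (adjusted p = 0.0529), TrpRS-m 0.25 (adjusted p = 0.0611), ProRS-m 0.28 (adjusted p = 0.0611) and GlyRS 0.24 (adjusted p = 0.0694). GluProRS, the gene with the largest difference from input, changed by -0.04 ± 0.08. Without polysome porthos replicate 2 the count rose to 11 higher and 2 lower genes, while over all genes 13.6% were then higher and 12.2% lower. The genes added were AspRS-m, GlyRS, IleRS, SerRS and TrpRS-m as higher and HisRS as lower. Without polysome GFP replicate 1 the count fell to 4 higher and 0 lower, against 5.93% and 3.34% of all genes.

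The last comparison set the log2 change with porthos dsRNA on polysomes against the one in input, gene by gene, as an interaction term relative to the average mRNA. By edgeR 0 of 33 synthetase genes passed in either direction, against 0.0997% of all genes, 0.0776% higher and 0.0222% lower. At an unadjusted p under 0.05 there were 8, all higher, 6 of them cytosolic and 2 mitochondrial, and over all genes 9.61% were higher at that threshold. With no filter on low counts edgeR called AlaRS (adjusted p = 0.0212). DESeq2 called 2 higher, AlaRS (adjusted p = 0.0147) and GlnRS (adjusted p = 0.0293). With a term per lysate, taking equal replicate numbers to share a lysate, edgeR called the same 2 as higher. The labels do not state that equal numbers share a lysate. In the main edgeR fit the largest differences were those of AlaRS (0.44 ± 0.12, adjusted p = 0.0902), ArgRS (0.40 ± 0.13, adjusted p = 0.133) and GlnRS (0.39 ± 0.10, adjusted p = 0.091). The difference was above 0 for 17 of 19 cytosolic genes (median 0.15) and 11 of 14 mitochondrial genes (median 0.15), 28 in all, against 4468 of 9024 genes (median 0.00). With scaling by library size alone, or with the length trend removed, it was above 0 for 24 of the 33. Without polysome porthos replicate 2, 6 genes passed as higher, namely AlaRS, ArgRS, GlnRS, GlyRS, SerRS and LeuRS-m, when 5.54% of all genes did. Without replicate 3 of that group 0 passed.

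Genes that work next to the synthetases were described from 5 lists, to be read against the 11.2% of all genes that were higher and the 7.14% that were lower on polysomes with porthos dsRNA. The scaffold and amidation list had 0 of 6 tested genes called on polysomes with porthos dsRNA by edgeR (2 lower at an unadjusted p under 0.05), with AIMP1 at -0.27 ± 0.13 and AIMP3 at -0.33 ± 0.14. AIMP1 and AIMP3 passed as lower with no filter on low counts and without polysome GFP replicate 3. Without polysome porthos replicate 2, AIMP1 alone of this list passed as lower. Of 10 genes of tRNA maturation and modification 4 rose and 0 fell (median 0.26), or 3 and 0 without polysome porthos replicate 3 and 2 and 0 without polysome GFP replicate 1. Among the 4 were Elp2 (0.54 ± 0.10, adjusted p = 0.000377), of the Elongator complex that modifies the wobble base, La (0.31 ± 0.08, adjusted p = 0.00756), which binds the ends of new tRNA precursors, and the tRNA methyltransferase gene Nsun2 (0.28 ± 0.10, adjusted p = 0.0442). With single libraries left out Nsun2 passed only without input porthos replicate 2 or polysome porthos replicate 2. Without polysome porthos replicate 3, for example, it was at 0.20 (adjusted p = 0.215). Nsun2 did not pass with scaling by library size alone either.

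Of 8 mitochondrial translation factor genes 2 rose on polysomes and 0 fell (median 0.06), against 11.2% and 7.14% of all genes, and the same 2 passed without polysome porthos replicate 3. The elongation factor genes mEFTu1, whose protein carries charged tRNA to the mitochondrial ribosome, and mEFG1, whose protein moves the ribosome along, had changes of 0.53 ± 0.09 (adjusted p = 0.000303) and 0.77 ± 0.12 (adjusted p = 8.35e-05). mEFG1 had 19.6 ± 2.53 CPM with GFP and 33.4 ± 2.22 CPM with porthos dsRNA. Of 7 genes of cytosolic elongation and release 3 rose and 0 fell (median 0.16), namely eEF1alpha2 (0.94 ± 0.16, adjusted p = 0.000212), eRF3 (0.28 ± 0.07, adjusted p = 0.00947) and eEF2 (0.20 ± 0.07, adjusted p = 0.0396). eEF2 did not pass when any 1 of the 12 libraries was left out (adjusted p = 0.0825 without polysome porthos replicate 3). Without polysome GFP replicate 1 or polysome porthos replicate 1 eEF1alpha2 alone of this list passed. eEF1beta passed as lower without polysome GFP replicate 3 or polysome porthos replicate 2.

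Of 6 genes of the response to amino acid starvation 4 fell on polysomes and 1 rose (median -0.24), against 7.14% and 11.2% of all genes. The counts were again 4 and 1 without polysome porthos replicate 3, with Gcn2 (-0.26, adjusted p = 0.0375) in place of PEK (-0.23, adjusted p = 0.0525). Without polysome GFP replicate 3 they were 3 and 0, and without polysome GFP replicate 1 they were 4 and 0. Without polysome porthos replicate 1 they were 3 and 1, and PEK did not pass. With the polysome libraries fitted alone they were 2 and 1, and neither PEK nor crc passed. With the length trend removed they were 5 and 1, with Gcn2 added. Thor, which encodes the translation repressor 4E-BP, fell from 395 ± 37.7 to 257.0 ± 15.2 CPM (-0.62 ± 0.09, adjusted p = 5.28e-05). trbl (-0.46 ± 0.09), crc (-0.26 ± 0.07), the gene for the transcription factor ATF4, and PEK (-0.22 ± 0.07), which encodes the kinase PERK, fell, and the folate cycle gene Nmdmc rose (0.30 ± 0.08). In input Thor alone of the 5 lists passed, at -0.41 (adjusted p = 0.0177). In mammals ATF4 activates many cytosolic synthetase genes.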

How the data were processed

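The authors deposited 1 table of whole-number read counts per gene for each of the 12 libraries, made with HISAT2 2.1.0 and featureCounts 1.4.6 on build dm6, per the submitters' processing notes. For the annotation release, strand setting and multiply mapping reads, the processing is not given in the sources used here. Symbols (16647 of 17023 identifiers), coordinates counted from 1 and exon lengths came from an Ensembl annotation of the same assembly.

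From these counts, filterByExpr kept 9024 genes. One quasi-likelihood fit (edgeR 4.0.16, R 4.3.3; TMM scaling, a term per group) over all 12 libraries gave 5 contrasts, with Benjamini-Hochberg adjustment over all genes tested and calls at an adjusted p under 0.05. The SE was obtained from the log2 change and the F statistic of its test. The common biological coefficient of variation was 0.0792. The scripts were tested on simulated data. Alternatives were relative log expression or library size scaling, DESeq2 1.42.0, other filters, blocks, fits of the groups compared, removal of a length trend and leaving out each library. For the 5 lists they were run after seeing the data.

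Replicates differed by more than counting noise (lowest chi-square per degree of freedom 2.30). Because the labels name no separate cultures, each p-value reflects the variation among these samples alone, and that variation may be technical. Values per library are given for synthetase genes called in a porthos contrast, the highest and lowest of each compartment, and those with the largest polysome to input difference. The members and lists were chosen with earlier results of these data known. LeuRS and PheRS-m were not analysed here, and no protein or promoter sequences were used. The values of 1 listed gene are not reported here.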

Additional observations from a re-analysis of the deposited data

How the results depend on the processing

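No called synthetase gene changed direction under any alternative run. Counts of called genes moved with some settings. In input, fitting the compared groups alone gave 3 lower genes. On polysomes with porthos dsRNA, library size scaling gave 3 lower genes, DESeq2 2 and removal of the length trend (chosen after seeing the data) 3, and fitting the compared groups alone left 1 mitochondrial gene higher. For the difference of changes, DESeq2 gave 2 higher genes, no filter 1 and a replicate block per lysate 2. For polysome against input, library size scaling gave 4 higher genes with GFP and 4 with porthos dsRNA, and removal of the length trend gave 2 higher genes with GFP dsRNA and 3 lower mitochondrial genes in each treatment. In RPKM the mitochondrial sum was 21.1% of the cytosolic sum on polysomes with GFP dsRNA. With each library left out in turn, the counts with porthos dsRNA on polysomes ran from 4 to 11 higher (cytosolic 3 to 7, mitochondrial 1 to 4) and 0 to 2 lower, those of the difference of changes from 0 to 6 higher, and those of polysome against input with porthos dsRNA from 1 to 3 higher and 13 to 19 lower. There the cytosolic count of lower genes ran from 9 to 14. Of each lysate a part was kept as input, but the labels do not say that a replicate number marks a shared lysate. Same-numbered libraries correlated weakly in their deviations from group means (-0.019 to 0.156). Between input and polysome libraries of a treatment every library correlated best with its own number (0.041 to 0.156). For unequal numbers the correlations were -0.09 to 0.023. That equal numbers share a lysate is thus a hint from the data, which the labels do not state. A replicate block kept the same 7 calls on polysomes, 23 and 20 calls of polysome against input with GFP and porthos dsRNA, and 0 calls in input and for the difference. Over all genes, the difference of changes had 7 higher and 2 lower genes against 220 and 33 by DESeq2, 149 and 94 with no filter, 28 and 11 with the replicate block and 175 and 52 with the block per lysate. On polysomes the compared groups alone gave 559 and 294 genes, against 1014 and 644, and library size scaling 782 and 953.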
